A study of Caenorhabditis elegans with 8 samples.

Results

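Whole *C. elegans* of the wild-type strain Bristol N2, taken as a mixture of L1 and L2 larvae, were compared here as total RNA and as dsRIP RNA, the fraction of the same kind of RNA that was pulled down with the J2 antibody against double-stranded RNA (dsRNA). Both groups share strain, stage and culture: embryos freed with hypochlorite hatched without food, according to the labels, and larvae were then fed and grown in liquid medium at 20 °C. Mid-L1 animals (6 to 8 h of culture), mid-L2 animals (18 to 20 h) and animals at the molt between them (12 to 14 h) were pooled in volumes of 5, 5 and 2, so a value is a mean over feeding and molting larvae. Neither group carries a mutation or a treatment, and dsRIP differs from total RNA only by the pull-down from extracted RNA, before fragmentation to 200 to 300 nt. The comparison takes 2 of the series' 8 samples and 6 of its 24 columns, and all 27050 rows of the deposited table: 25509 genes and 1541 editing-enriched regions (EERs), stretches of genome in which the study found clustered editing. Of these, 9095 genes and 294 EERs had at least 30 reads over the 6 columns and were tested; 16414 genes and 1247 EERs did not reach that filter.

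Long dsRNA forms where inverted repeats are transcribed into one RNA and fold back on themselves, or where both strands of a locus are transcribed. ADAR enzymes bind such duplexes and convert adenosines to inosines, so clustered A-to-I changes mark RNA that was double-stranded in the animal, and in *C. elegans* adr-2 encodes the active deaminase while adr-1 encodes a dsRNA-binding partner. The same duplexes are substrates for Dicer, the nuclease that starts RNA interference, and J2 binds long duplexes with little regard to sequence. Many abundant structured RNAs, such as the RNAs of the spliceosome and of the nucleolus, also hold helices, but short ones in compact folds.

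The labels give a single sample for total RNA and a single one for dsRIP at each stage, and the table gives 3 numbered columns for each without saying whether they are separate cultures. The p-values below therefore measure the spread between numbered columns, which may be technical. The recovered reads summed to between 408177 and 914422 per column, and the 3 columns differed 5.91 times more than counting noise in total RNA and 6.83 times more in dsRIP (chi-square per degree of freedom). Same-numbered total RNA and dsRIP columns deviated together, and so a fit with the column number as a block is given beside the fit without it where it changes a call. Column 2 had the lowest share of mitochondrially encoded reads in both molecules. In total RNA it was 1.19%, against 2.77% and 1.94% in columns 1 and 3. In dsRIP it was 1.12%, against 6.43% and 4.47%. Named cuticle collagens, whose levels rise and fall with the molt, took 0.0357%, 0.261% and 0.166% of reads in total RNA columns 1 to 3 and 0.0472%, 0.332% and 0.187% in dsRIP. The stage label held against marker genes: the 6 yolk protein genes, high in adults, summed to 1.92 to 10.4 FPKM here against 968 to 6645 in young adults, the 31 major sperm protein genes had 13 reads in all, and 12 early embryonic regulators had 5 reads with 8 of them at 0. Since whole worms were sampled, fewer cells of a type and less RNA per cell cannot be told apart.

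In L1-L2 larvae the antibody fraction held a larger share of EER reads and of rRNA reads, and a much smaller share of spliceosomal RNA reads. Nucleolar RNAs, tRNAs and the class of other non-coding RNAs also had smaller shares in it. EERs took 0.690%, 0.704% and 0.617% of the reads in the 3 total RNA columns and 2.3%, 1.57% and 1.77% in the dsRIP columns. All 3 dsRIP columns lay above all 3 total RNA columns, and the mean share was 2.81-fold higher (3.33, 2.24 and 2.87 within columns 1, 2 and 3). Small nuclear RNAs (snRNAs), the RNA parts of the spliceosome, went the other way: they took 2.58%, 1.16% and 1.54% of reads in total RNA and 0.159%, 0.0860% and 0.108% in dsRIP. The dsRIP share was 0.0666 of the total RNA share, and the columns did not overlap. Small nucleolar RNAs (snoRNAs), which guide the modification of rRNA, had 0.363 of their total RNA share in dsRIP, with means of 3.21% and 1.16%, again without overlap. The class of other non-coding RNAs, of any length and apart from piRNAs and lincRNAs, had 3.64% in total RNA and 1.71% in dsRIP. For tRNAs the shares were 0.0263% and 0.0107%. The mean rRNA share was 3.62% in total RNA and 7.54% in dsRIP, 2.08-fold higher, with 3.29%, 4.60% and 2.97% in total RNA and 8.85%, 7.72% and 6.05% in dsRIP. It covers only reads counted for the 10 listed rRNA genes and does not measure how much rRNA the extracted RNA held. Nuclear protein-coding genes held 84.1% of reads in total RNA and 82.7% in dsRIP, with overlapping columns. For each class whose columns did not overlap, the exact two-sided permutation test gave p = 0.1, the smallest p that 3 against 3 columns allow, and 0.171 after Benjamini-Hochberg adjustment over 12 classes, so none of the shares can pass a threshold of 0.05 in this design. Shares are relative to the reads of all listed features, so a rise of 1 class lowers the others.

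**Figure D1:**
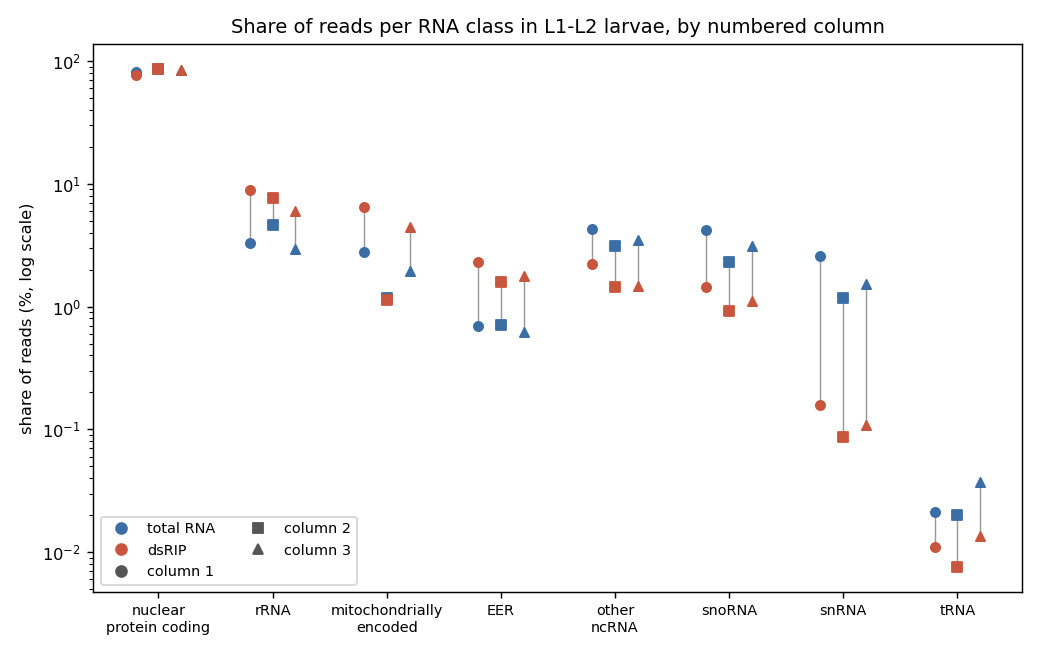
Share of reads (percent, log axis) of 8 RNA classes in L1-L2 larvae, with total RNA in blue and dsRIP in red, and a grey line joining same-numbered columns. EERs took 0.617% to 0.704% in total RNA and 1.57% to 2.3% in dsRIP, snRNAs lay lower in dsRIP in every column, and the mitochondrial share in column 2 did not move with the other columns.

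Feature by feature, the fit without a block (limma on log2(FPKM + 1), Benjamini-Hochberg over all 9389 features, threshold 0.05) called 2 genes higher in dsRIP, 0.022% of the genes tested, and 73 lower, 0.803%. With the column number as a block, 75 genes were higher (0.825%) and 279 lower (3.07%). Setting the medians of all columns equal gave 8 higher and 65 lower, and quantile normalisation 10 and 67. Of the EERs, 47 were higher (16%) and 0 lower, with 207 of 294 at an unadjusted p under 0.05; the block gave 122 higher (41.5%) and 2 lower (0.68%). The median log2 ratio, dsRIP minus total RNA, was -0.25 over genes, -0.23 over all features and 1.44 over EERs. A ratio of 0 therefore lies above the median gene. All 122 features called without the block were also called with it. The calls without the block depend on single columns: EERs higher numbered 13, 14 and 2 without total RNA column 1, 2 or 3 and 5, 41 and 2 without dsRIP column 1, 2 or 3, and genes lower 24, 42, 21, 38, 62 and 25 in the same order. The log2(FPKM + 1) scale understates the change of features with low FPKM.

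**Figure D2:**
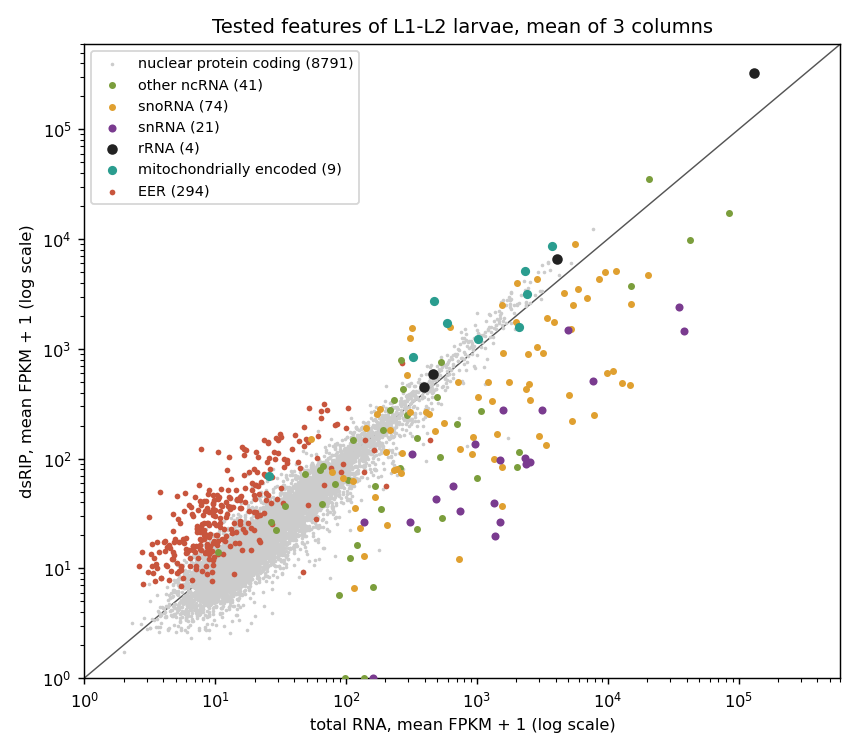
Mean FPKM + 1 over 3 columns in total RNA (x axis, log) and dsRIP (y axis, log) for the tested features of 7 classes in L1-L2 larvae, with the line of equal values. Most of the 294 EERs (red) lie above the line at low FPKM, and all 21 snRNAs (purple) lie below it at high FPKM.

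The snRNAs had the lowest median of the RNA classes tested. All 21 tested snRNAs, of 83 listed, had a ratio below 0 with 3 dsRIP columns under the 3 total RNA columns, which held for 18.7% of genes; 16 were called lower without the block and 21 with it, and their median log2 ratio was -3.90. sup-39 (chromosome II, 6968352-6968516) encodes a U1 snRNA, the RNA that recognises the start of an intron; its FPKM was 57038, 26334 and 31559 in total RNA columns 1 to 3 and 1929, 980.0 and 1421 in dsRIP. All dsRIP columns lay far below all total RNA columns, with 302 reads against 13855, and the log2 ratio was -4.70 ± 0.40 (SE) (adjusted p = 0.00252). sup-6 (chromosome II, 12944734-12944898), another U1 gene, had 53359, 21016 and 31494 FPKM in total RNA and 3558, 1469.9 and 2138 in dsRIP, giving a ratio of -3.87 ± 0.46 (SE) (adjusted p = 0.0127). Column 1 was the highest for both genes in both molecules. F08H9.10 gave -3.86, Y57G11C.35 -4.72, W04G5.11 -5.06, F32B5.9 -5.12 and Y47H9A.2 -5.90, with adjusted p between 0.000723 and 0.0404. C53D6.12 (chromosome IV, 9001282-9001407) had 401 total RNA reads and 3 dsRIP reads, all 3 in column 1: the pooled read ratio was 84.8-fold lower, with a counting interval of 28.8 to 413. Many snRNA genes are near-identical copies, and how the authors divided reads between copies is not stated, so values of single copies are uncertain. C15F1.14 (-4.95) encloses the span of sup-39 but had 785 total RNA reads and 18 dsRIP reads, against 13855 and 302 for sup-39. How reads were divided between these 2 overlapping entries is not stated.

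The snoRNAs did not move as one group. Of 74 tested, 18 were called lower and 2 higher without the block, and 46 lower and 7 higher with it; the median was -1.39 and the range ran from -6.69 to 2.43. K12D12.7 (chromosome II, 11876493-11876553) had 18967, 10371 and 14843 FPKM in total RNA and 696, 361 and 342 in dsRIP, giving a ratio of -5.01 ± 0.36 (SE) (adjusted p = 0.00171). Its neighbour K12D12.6 gave -5.05 (adjusted p = 0.00203); the genes lie 1 base apart, and reads that span both were not separated. F25H2.14 (chromosome I, 10569176-10569401) had 6147 total RNA reads and 140 dsRIP reads and fell by 4.71 on the log2 scale (adjusted p = 0.00156). Y46G5A.40 had 222 total RNA reads and 2 dsRIP reads, 70.4-fold lower with a counting interval of 19.3 to 585. In these 4 snoRNAs no dsRIP column reached any total RNA column. Among the most abundant snoRNAs, Y38F2AR.14 gave -2.11 (adjusted p = 0.0308), T24H7.6 -2.61 (adjusted p = 0.0206), and Y24D9A.9 -1.12, which passed only with the block (adjusted p = 0.0291, against 0.158 without).

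Both genes called higher without the block were snoRNAs. Y37E3.20 (chromosome I, 2085040-2085158) had 386, 139.9 and 422 FPKM in total RNA and 1684, 1215 and 1775 in dsRIP. The lowest dsRIP column was well above the highest total RNA column, and the log2 ratio was 2.43 ± 0.43 (SE) (adjusted p = 0.0450). F11A10.9 (chromosome IV, 12086687-12086806) had 683, 674 and 507 FPKM in total RNA and 1611, 1613 and 1528 in dsRIP, with a narrow spread in both and a ratio of 1.36 ± 0.22 (SE) (adjusted p = 0.0316). F54E7.11 (chromosome III, 5679700-5679830), which lies within the span of the ribosomal protein gene rps-12, gave 2.01 ± 0.40 (SE) and passed only with the block (adjusted p = 0.000352, against 0.0683 without). Y74C9A.6 and Y43F8C.22 likewise passed only with the block, at 0.95 and 0.92. These last 3 were named after their values were seen.

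The class of other non-coding RNAs contained members that differed by direction, and 2 related ribonucleoprotein RNAs stood on opposite sides of 0. rpr-1 (chromosome I, 13463944-13464196), the RNA of RNase P, which trims the leading end of tRNA precursors, had 98101, 72138 and 81515 FPKM in total RNA and 20984, 17721 and 13368 in dsRIP; it fell by 2.29 on the log2 scale (adjusted p = 0.0353). mrpr-1 (chromosome II, 7200192-7200377), the RNA of the related RNase MRP, which acts on rRNA precursors, had 24423, 18783 and 18399 FPKM in total RNA and 52599, 28095 and 25196 in dsRIP. Its dsRIP columns all lay above its total RNA columns, but the ratio of 0.71 ± 0.41 (SE) did not pass without the block (adjusted p = 0.441) or with it (0.0533). lfor-2 (chromosome II, 14641472-14641528) fell by 2.1 on the log2 scale (adjusted p = 0.0330). Over the class, 41 of 2994 listed genes were tested, 14 were called lower and 0 higher without the block, 19 lower and 1 higher with it, and the median was -1.40. The 1 higher gene was rncs-1, described with the EERs. Only 2 of 260 listed tRNA genes passed the filter. W09G10.t3 fell by 2.12 (57 reads in total RNA and 8 in dsRIP, adjusted p = 0.0127), and F10C1.t1 by 1.37, which passed only with the block (0.00762, against 0.123).

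A short RNA gene and a longer gene around it had nearly the same values. srpr-1.1 (chromosome III, 4378879-4379171) encodes the RNA of the signal recognition particle, which guides secreted proteins to the endoplasmic reticulum, and lies within the span of pals-26 (chromosome III, 4376475-4379172), a member of the pals family that the intracellular pathogen response list holds. srpr-1.1 had 618 total RNA reads and 24 dsRIP reads, and pals-26 627 and 29. The 2 entries thus held nearly the same numbers of reads, and their log2 ratios were -3.96 and -3.59 (adjusted p = 0.00257 and 0.00252). No value is therefore given here to the pals-26 mRNA itself. Among protein-coding genes pals-26 was the 1 of 23 lower genes that overlaps a short RNA with at least 30 reads; with the block it was 1 of 186 (0.538%), against 0.614% of those tested.

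The rRNA genes had unlike ratios. rrn-2.1 (chromosome I, 15064290-15064442), a small rRNA that pairs with the large-subunit rRNA, was the most abundant gene in dsRIP, with 141849, 152584 and 101784 FPKM in total RNA and 413572, 334788 and 237918 in dsRIP. The groups did not overlap; the ratio of 1.30 ± 0.54 (SE) passed only with the block (adjusted p = 0.00616, against 0.304). rrn-3.1, the large-subunit rRNA, gave 0.75 ± 0.31 (SE) (adjusted p = 0.310; 0.0882 with the block), and rrn-1.1, the small-subunit rRNA, 0.30 ± 0.47 (SE) (adjusted p = 0.791). Of 10 rRNA genes listed, 4 were tested and 4 had a ratio above 0. The copies of each rRNA are near-identical, so their reads cannot be assigned to single genes.

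Mitochondrially encoded transcripts had a larger dsRIP share in columns 1 and 3 and not in column 2. Their share of reads was 2.77%, 1.19% and 1.94% in total RNA and 6.43%, 1.12% and 4.47% in dsRIP, a ratio of 2.32 in column 1, 0.947 in column 2 and 2.31 in column 3. The columns overlap, and the exact two-sided permutation test gave p = 0.4. Over 9 tested genes of 11, the median ratio was 0.87; 0 were called without the block and 3 higher with it. MTCE.26 (chromosome M, 7845-9555) had 5271, 2289.6 and 3751 FPKM in total RNA and 13709.6, 2276 and 9822 in dsRIP, a ratio of 0.92 ± 0.67 (SE) (adjusted p = 0.546; 0.108 with the block). The overlapping entry MTCE.25 gave 0.87 and MTCE.21 0.14, and neither passed. MTCE.26 and MTCE.25 had 13048 and 14870 total RNA reads, and a read in their overlap may count for both entries in the mitochondrial share.

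**Figure D3:**
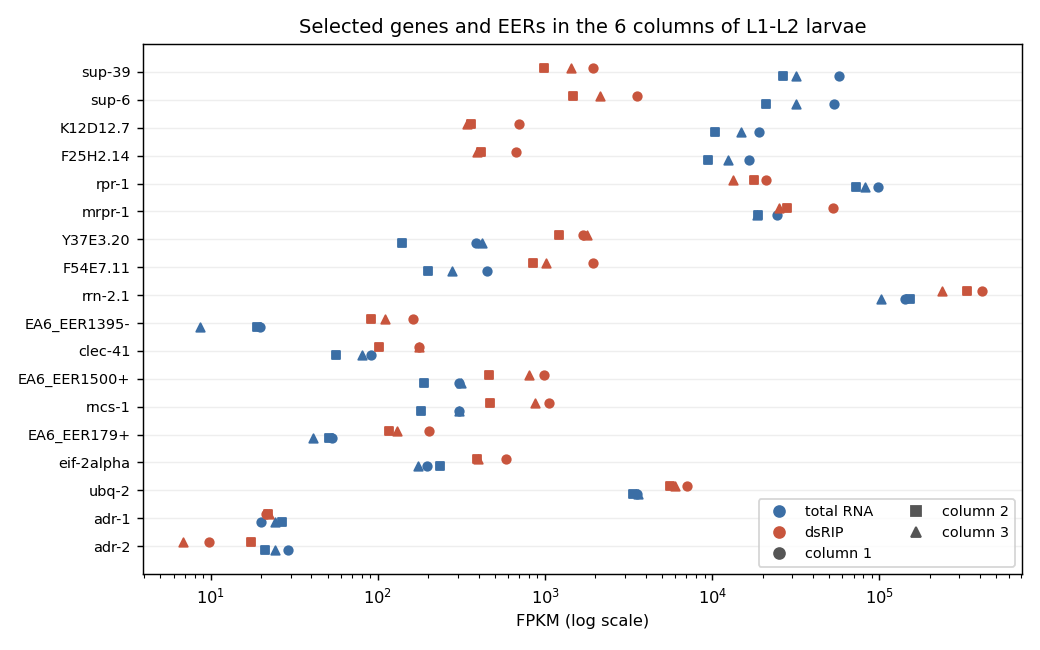
FPKM (log axis) of 18 genes and EERs in the 3 total RNA columns (blue) and 3 dsRIP columns (red) of L1-L2 larvae. Both sup genes, K12D12.7, F25H2.14 and rpr-1 lie lower in every dsRIP column, the EERs lie higher in every dsRIP column, and adr-1 overlaps.

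Most EERs lay higher in dsRIP. Of 294 tested EERs, 275 had a ratio above 0, and in 208 (70.7%) all 3 dsRIP columns lay above all 3 total RNA columns, against 3.43% of genes. Reads were found more widely too: 297 EERs had at least 10 reads in total RNA and 560 in dsRIP, although the dsRIP columns were less deep. The 1247 EERs below the filter, as a group, held 3172 total RNA reads and 7585 dsRIP reads, and their share of reads was 4.43, 2.79 and 4.06 times higher in dsRIP columns 1, 2 and 3. The median log2 ratio over the tested EERs was 1.71, 1.10 and 1.36 within columns 1, 2 and 3, so column 2 gave the smallest ratio. The study chose EERs by editing in its own libraries, in part from these columns, and their higher values in dsRIP are not independent evidence of their double-stranded state.

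EERs that recur across the study's region lists had a higher median ratio. The 216 tested EERs that overlap the authors' L1-L2 list by at least 1 bp had a median ratio of 1.6, with 44 called without the block and 110 with it; the 78 outside that list had a median of 0.70, with 3 and 12. For the 73 EERs in all 4 stage lists the median was 1.80 and 30 were called (51 with the block); for the 35 in no stage list it was 0.40 and 1 was called (4 with the block). EERs in the authors' list from total RNA of all stages had a median of 1.51 over 211 EERs, and those in the dsRIP list but not in it 1.27 over 71 EERs. These lists come from the same libraries, and the counts are given as a description.

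Median ratios also differed by position and length. The 54 EERs that overlap no gene span had a median of 1.74, with 18 called (36 with the block), and the 240 that overlap one had 1.29, with 29 (86). By length, the median was 1.86 for 29 EERs under 300 bp, 1.68 for 92 EERs of 300 to under 1000 bp and 1.17 for 173 EERs of 1000 bp or more; 8, 24 and 15 were called. By chromosome the median ran from 1.29 on V to 1.57 on IV, with 5 EERs on X. The lengths are not alike between these groups: the median EER spanned 600 bp outside gene spans and 1390.5 bp within them. The parts of length and position in the ratio were not told apart.

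**Figure D4:**
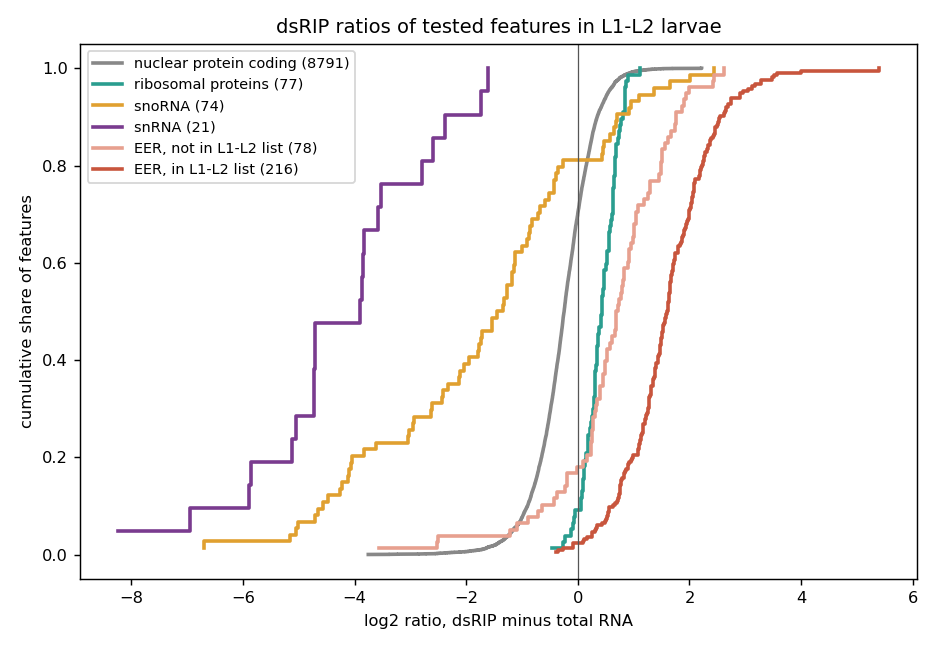
Cumulative share of tested features (y axis) by log2 ratio, dsRIP minus total RNA (x axis), for 6 groups in L1-L2 larvae. snRNAs lie farthest left with a median of -3.90, nuclear protein-coding genes centre at -0.25, and EERs of the L1-L2 list lie farthest right with a median of 1.6.

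The 10 EERs named here had the largest ratios among those called without the block, with at least 100 reads and no overlap between the groups. EA6_EER1395- (chromosome V, 13135017-13135901) lies within the span of clec-41, a C-type lectin gene and a known ADAR substrate; its FPKM was 19.8, 18.8 and 8.60 in total RNA and 162, 91.4 and 110.2 in dsRIP. The groups did not overlap, and the log2 ratio was 2.91 ± 0.37 (SE) (adjusted p = 0.0161). EA6_EER209- (chromosome I, 2375630-2376207), outside any gene span, had 20.8, 12.3 and 15.8 FPKM in total RNA and 171, 76.3 and 108 in dsRIP, a ratio of 2.74 ± 0.35 (SE) (adjusted p = 0.0161). EA6_EER82- (chromosome I, 1346987-1347967) had 21.2, 12.1 and 14.0 and 156, 69.9 and 97.0, a ratio of 2.66 ± 0.36 (SE) (adjusted p = 0.0189). In all 3 the first dsRIP column was the highest and the second the lowest. EA6_EER870+ gave 2.45, EA6_EER1475- 2.28, EA6_EER53- 2.22, EA6_EER891+ 2.08, EA6_EER582+ 2.08, EA6_EER306- 2.00 and EA6_EER375+ 2.00, with adjusted p between 0.0152 and 0.0444. Of these 10, EA6_EER1395- and EA6_EER306-, which overlaps C50F2.4, lie in a gene span and 8 do not.

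Of the 5 EERs most abundant in dsRIP, 3 (EA6_EER53-, EA6_EER870+ and EA6_EER306-) are among those 10. EA6_EER1500+ (chromosome X, 1011445-1012208), the most abundant EER in dsRIP, overlaps rncs-1, a non-coding RNA with a long hairpin that inhibits Dicer; its FPKM was 303, 189.9 and 313 in total RNA and 987, 462 and 799 in dsRIP. No dsRIP column overlapped total RNA, but the ratio of 1.44 ± 0.34 (SE) passed only with the block (adjusted p = 0.00266, against 0.106). EA6_EER800+ (chromosome III, 11136297-11136353), of 57 bp and with 33 reads, had 115, 83.4 and 107 FPKM in total RNA and 538, 129 and 204 in dsRIP, and did not pass (adjusted p = 0.275; 0.0671 with the block). The 5 longest EERs of the L1-L2 list span 3755 to 4690 bp. EA6_EER179+ (chromosome I, 2075028-2078782), which overlaps eif-2alpha, was called, with 53.3, 50.7 and 40.9 FPKM in total RNA, 203, 116 and 130.4 in dsRIP and a ratio of 1.58 ± 0.27 (SE) (adjusted p = 0.0409). The other 4 did not pass with or without the block: EA6_EER1433- in snx-6, a sorting nexin gene, gave 1.21, EA6_EER124+ in the tyrosine kinase gene src-1 0.75, EA6_EER726- in daf-2, the insulin receptor gene, 0.64, and EA6_EER972+ in Y38C1AA.1 0.30.

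Most EERs had a larger ratio than the gene that holds them. Over 248 pairs of a tested EER and a tested gene whose span it overlaps (234 EERs and 206 genes), the EER had the larger ratio in 229; the median was 1.27 over the EERs and 0.02 over the genes, and the median difference was 1.09. A read of an EER in an exon may also count for the gene, and spans include introns, so the values are not independent. Of the 206 genes, 0 were called higher and 1 lower without the block, and 6 higher and 4 lower with it. Having an EER was not more common among genes called higher: 769 of 9095 tested genes (8.46%) overlap an EER, 6 of the 75 higher with the block (8.00%), and 6 of the 279 lower (2.15%). The 264 tested genes of 295 that overlap an EER of the L1-L2 list had a median of 0.01 and 135 ratios above 0. Over all 9095 tested genes the median was -0.25 and 2716 ratios lay above 0. Of the 264, 192 lay above the median of all features, -0.23. Among their most abundant members, lec-1, a galectin gene, gave 0.37 ± 0.25 (SE) and did not pass, and F42C5.12, an snRNA gene, gave -2.80 ± 0.56 (SE), which passed only with the block (adjusted p = 0.00823, against 0.0683).

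**Figure D5:**
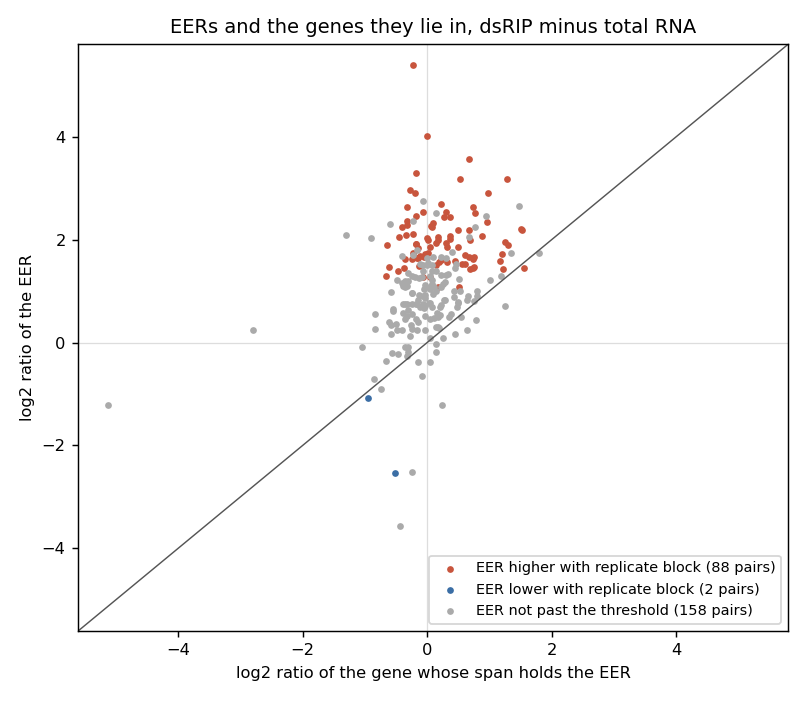
Log2 ratio of each EER (y axis) against that of a gene whose span it overlaps (x axis) for 248 pairs in L1-L2 larvae, with the line of equal ratios. In 229 pairs the EER lies above the line; red marks 88 pairs whose EER was higher with the replicate block and blue the 2 pairs whose EER was lower.

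Known ADAR substrates, taken as whole genes, passed only with the block. Of 9 listed genes 8 were tested: 0 were called without the block (0.022% of all genes were higher), 3 were higher with it (0.825% of all genes), 7 had a ratio above 0, and the median was 0.63 against -0.25 for all genes. rncs-1 (chromosome X, 1011498-1012344) had 304, 181 and 304 FPKM in total RNA and 1052, 467 and 865 in dsRIP. The groups did not overlap, and the ratio was 1.55 ± 0.36 (SE) (adjusted p = 0.0998; 0.00181 with the block). clec-41 (chromosome V, 13134926-13138071) had 91.1, 56.5 and 79.9 FPKM in total RNA and 176, 101 and 176 in dsRIP, a ratio of 0.97 ± 0.30 (SE) (adjusted p = 0.194; 0.0200 with the block) against 2.91 for the EER within it. ZC239.6 gave 1.51 ± 0.40 (SE) (0.0157 with the block, 0.136 without) with EA6_EER486+ at 2.21, and alh-7, an aldehyde dehydrogenase gene, 0.69 ± 0.24 (SE), which did not pass with or without the block (0.111 and 0.236). eif-2alpha (chromosome I, 2072680-2076909), which encodes a subunit of a translation initiation factor, had 196, 234.9 and 173 FPKM in total RNA and 583, 392 and 399 in dsRIP, a ratio of 1.17 ± 0.24 (SE) (adjusted p = 0.0730; 0.0179 with the block). Also higher only with the block were Y92H12BL.1 (1.25) and dnc-6 (1.28), a dynactin subunit gene. Y92H12BL.1 overlaps 3 EERs, of which EA6_EER85+ gave 1.95, and EA6_EER83+ gave 0.70 and passed in neither fit. EA6_EER271+, at 3.17, overlaps dnc-6 and also Y54E10A.6, which gave 0.53 and passed in neither fit. eif-2alpha, Y92H12BL.1 and dnc-6 are not in the list of known substrates. Of the genes here that passed only with the block, rncs-1 and clec-41 were named by rule, and the others after their values were seen.

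A few EERs had ratios at or below 0. In 3 EERs (1.02%) all dsRIP columns lay below all total RNA columns. Of the 19 EERs with a ratio of 0 or less, 5 are in the L1-L2 list, and 2 were called lower with the block. EA6_EER1363- (chromosome V, 6171830-6172692), within ttn-1, a titin-like muscle gene, had 54.5, 38.6 and 44.1 FPKM in total RNA and 8.195, 14.2 and 2.69 in dsRIP, a ratio of -2.53 ± 0.50 (SE) (adjusted p = 0.0261 with the block, 0.0681 without). EA6_EER1390+ (chromosome V, 12513319-12513728), within lgmn-1, gave -1.08 ± 0.41 (SE) (adjusted p = 0.0359 with the block, 0.270 without). Neither is in the L1-L2 list. The most abundant EERs outside that list were EA6_EER800+ (above), EA6_EER233-, which overlaps the snRNA gene F32B5.9 and gave -1.22 ± 0.75 (SE), and EA6_EER1389+ in frm-7, which gave 0.67 ± 0.66 (SE); neither of the last 2 passed with or without the block.

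Among nuclear protein-coding genes, those for ribosomal proteins were the main group higher in dsRIP, and only with the block. Ribosomal protein genes were taken by symbol, rpl- or rps-, so one under another name is not counted. Of the 77 tested, 70 had a ratio above 0, and the median was 0.43. With the block 28 (36.4%, against 0.825% of all genes) were higher, which makes 46.7% of the 60 protein-coding genes so called. The small subunit had 15 of 31 (median 0.53) and the large subunit 13 of 46 (median 0.36); 0 were called without the block and 0 lower with either fit. rpl-41.2 had 8039, 8085 and 6980.0 FPKM in total RNA and 12793, 12525 and 11448 in dsRIP, a ratio of 0.67 ± 0.27 (SE) (adjusted p = 0.0197 with the block, 0.287 without). rps-9 had 2344, 5160.0 and 3005 and 4437, 8419 and 5166: each dsRIP column lay above its same-numbered total RNA column, though the groups overlap, and the ratio was 0.80 ± 0.39 (SE) (0.0110 with the block, 0.368 without). rpl-10 gave 0.63, rps-14 0.89 and rps-16 0.87 and passed with the block only, while rpl-39 (0.21), rps-17 (0.15) and rps-8 (0.53) passed in neither fit. ubq-2 (chromosome III, 12977809-12978428), which encodes ubiquitin fused to a ribosomal protein, had 3571, 3336 and 3576 FPKM in total RNA and 7025, 5619 and 6019 in dsRIP, a ratio of 0.83 ± 0.24 (SE) (0.0107 with the block, 0.168 without). The list of 16 translation factor genes also holds ribosomal stalk protein genes (rla-). In it 3 were higher with the block (median 0.32): eif-2alpha, rla-2 and rla-0 (0.80 ± 0.30 (SE), 0.0170 with the block, 0.268 without). eef-1A.1, the main elongation factor, gave 0.37 and rla-1 0.34, and neither passed. These genes are short, and snoRNA genes lie within some: 7 of the 60 protein-coding genes higher with the block (11.7%) overlap a short RNA, against 0.614% of those tested.

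Some protein-coding genes without an rpl- or rps- symbol were higher only with the block and were named after their values were seen. They included aldo-2, a glycolytic aldolase (0.87 ± 0.19 (SE)), aps-3, a subunit of the AP-3 adaptor (1.06), and ztf-29, a zinc finger gene (1.11). Y82E9BR.14, F45D3.4 and Y37E3.8 gave 0.95, 0.95 and 0.90. Ribosomal protein genes under another name were not set apart from them. Y37E3.8 overlaps the short RNA genes Y37E3.22, Y37E3.28 and Y37E3.21. aldo-2 had 247, 279.8 and 269.7 FPKM in total RNA and 435, 497 and 526 in dsRIP, without overlap (adjusted p = 0.0117 with the block, 0.0888 without).

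Protein-coding genes called lower without the block numbered 23 of 8791, and 186 were lower with it. F23A7.8 (chromosome X, 16213301-16213527), with 854 total RNA reads and 44 dsRIP reads, had 2447, 1236 and 1528 FPKM and 197, 43.2 and 215, a ratio of -3.75 ± 0.60 (SE) (adjusted p = 0.0330). Its neighbour F23A7.4 gave -2.78 ± 0.41 (SE) (adjusted p = 0.0265). Apart from these and pals-26, ostf-4 gave -2.1 ± 0.26 (SE) (adjusted p = 0.0153). The genes lower without the block included the kinetochore genes kbp-3 (-2.46) and kbp-2 (-1.67), gfl-1 (-1.94) and the dynactin subunit gene arp-11 (-1.44). Total RNA and dsRIP reads numbered 53 and 6 for kbp-3 and 33 and 6 for kbp-2. For gfl-1 they were 56 and 9, and for arp-11 70 and 15. In dsRIP kbp-2 had 2 reads in each column and arp-11 5, so the spread behind these calls rests on few reads. Also lower without the block was the Pumilio-family gene puf-12 (-1.33), with 542 total RNA reads and 130 dsRIP reads. F20C5.6, C39D10.8, T01C8.2 and srlf-31 were lower only with the block (-1.96, -1.96, -1.85 and -1.82). The genes of this paragraph were named after their values were seen. The share of genes called was higher in shorter genes: with the block, 3.80% of 395 protein-coding genes under 500 bp were higher and 9.62% lower, 1.74% and 4.16% of 1729 genes of 500 to under 1000 bp, 0.401% and 1.71% of 3742 genes of 1000 to under 2000 bp, 0% and 0.516% of 2327 genes of 2000 to under 4000 bp, and 0 of 598 genes of 4000 bp or more.

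Genes that make, bind or process dsRNA were looked at as transcripts; over all genes, 0.825% were higher and 3.07% lower with the block, so 0 calls in lists of this size say nothing particular about them. Of 12 ADAR and dsRNA-binding genes all 12 were tested; 0 were called in either fit, 0 had a ratio above 0, 2 lay above the median of all features, and the median was -0.50. adr-1 (chromosome I, 7773411-7777572) had 20.1, 26.7 and 24.2 FPKM in total RNA and 21.3, 22.1 and 22.4 in dsRIP, overlapping, with a ratio of -0.09 ± 0.24 (SE) that turned to 0.13 when column medians were set equal. adr-2 (chromosome III, 7230902-7232822) had 28.96, 21 and 24.2 and 9.71, 17.3 and 6.83; its dsRIP columns all lay below total RNA, but the ratio of -1.14 ± 0.37 (SE) rests on 87 and 24 reads and did not pass (adjusted p = 0.203; 0.115 with the block). dcr-1, which encodes Dicer, gave -0.31, rde-4, its dsRNA-binding partner, -0.57, and sid-2, a receptor for dsRNA in the gut, -0.98. Of 42 RNA interference genes 35 were tested and 0 were called in either fit (median -0.28, 8 above 0). The Argonaute gene rde-1 gave -0.97 ± 0.38 (SE), rrf-3, an RNA-dependent RNA polymerase gene, -0.16 ± 0.37 (SE), and the abundant members vig-1, tsn-1 and ain-2 0.07, 0.02 and -0.40. Of 17 intracellular pathogen response genes 4 were tested; besides pals-26, skr-3 gave -0.60 and pals-25 0.17, and neither passed.

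The tissue and molting lists held 0 or 1 call in each direction, and the shares over all genes tested were 0.022% higher and 0.803% lower without the block and 0.825% and 3.07% with it, so counts this small in lists of this size say nothing particular about them. Of 30 molting genes, 17 of 20 named and 67 of 151 numbered cuticle collagens, 12 of 16 pharynx genes, 10 of 12 heterochronic genes, 7 of 17 germline genes and 30 of 63 core histone genes that were tested, 0 were called in either fit, with medians of -0.20, 0.08, 0.14, 0.02, -0.17, -0.15 and 0.02. Of 24 body wall muscle genes 1 was higher with the block, pat-10, a troponin gene (0.59), and the median was 0.06. Of 20 tested neuronal genes 1 was lower with the block (median -0.16), of 19 tested intestinal genes 1 was higher, the lysozyme gene lys-1, and 1 lower (median -0.08), and of 14 tested chaperone genes 1 was lower (median -0.02). The medians below 0 among these lists lay above 0 when column medians were set equal, since the median of all features was itself -0.23. dpy-5, a collagen gene whose levels follow the molt, had 35.3, 468 and 140.5 FPKM in total RNA and 42.0, 665 and 245 in dsRIP. Column 1 was low and column 2 high in both molecules, and the ratio of 0.52 ± 1.15 (SE) did not pass. sqt-3 and rol-8, also collagen genes, showed the same order of columns with ratios of 0.64 ± 0.75 (SE) and 0.63 ± 0.85 (SE).

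The most abundant tested members of the other lists passed in neither fit. Among molting genes osm-11 gave 0.07, let-767, a steroid dehydrogenase gene, -0.21 and pan-1 0.27; among numbered collagens col-10, col-166 and col-160 gave 0.37, 0.14 and 0.17. The muscle myosin genes mlc-1, mlc-2 and unc-54 gave 0.28, 0.0022 ± 0.21 (SE) and 0.37, and in the pharynx phat-4, tnc-2 and phat-5 gave 0.23, 0.67 and 0.06. The neuropeptide gene flp-1 gave -0.45, and sbt-1 and egl-21, which act in neuropeptide processing, 0.07 and 0.15. In the intestine the protease genes asp-1 and cpr-4 gave 0.19 and 0.25, and the microvillar actin gene act-5 -0.14. The heterochronic genes lin-14, lin-28 and lin-41, which time larval cell fates, gave -0.34, 0.01 and -0.25. In the germline glh-1, pgl-1 and deps-1 gave -0.43, -0.12 and 0.22; the chaperone genes hsp-1, hsp-3 and cct-5 gave 0.20, 0.14 and 0.24; and the histone genes his-64, his-60 and his-18 gave -0.11, -0.03 and -0.47. vit-6, the 1 yolk gene that passed the filter, had 31 reads.

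The dsRIP ratios of L1-L2 larvae were set against those of the other 3 stages with limma over all 24 columns. No feature differed from the mean of the other 3 stages (0 of 9389, with 196 at an unadjusted p under 0.05), 0 from embryos (246), 0 from L3-L4 larvae (148), and 1, 0.0107%, from young adults (290). With the replicate block, 1 gene (hacd-1, lower in L1-L2 larvae) and 1 EER (EA6_EER1444+, higher) differed from embryos and 2 EERs from young adults, EA6_EER1444+ and EA6_EER1141-, both higher. EA6_EER1444+ had 5 total RNA reads and 27 dsRIP reads in L1-L2 larvae and 0 reads in either molecule in embryos and young adults, so no ratio was measured in those stages and its fitted difference is the L1-L2 ratio alone. hacd-1 had 0 total RNA reads and 3 dsRIP reads in embryos, against 121 and 72 in L1-L2 larvae. The feature that differed without the block was EA6_EER1141- (chromosome IV, 7316740-7316798), of 59 bp within the snRNA gene F42C5.12. It had 30 reads in L1-L2 larvae, 19 in total RNA and 11 in dsRIP; in young adults 27 total RNA reads and 0 dsRIP reads were found. As medians over the same features, the 294 EERs gave 1.44, 1.23, 1.05 and 0.89 in L1-L2 larvae, embryos, L3-L4 larvae and young adults, and the 21 snRNAs -3.90, -2.49, -3.76 and -4.67 in the same order. By column the EER medians ran from 1.10 to 1.71 in L1-L2 larvae, 1.01 to 1.39 in embryos, 0.576 to 1.16 in young adults and 0.745 to 1.21 in L3-L4 larvae, so each of the other stages overlaps L1-L2 larvae. The features were filtered on L1-L2 reads, and these medians were not tested. snoRNAs gave -1.39 in L1-L2 larvae, -1.29 in young adults, -1.28 in L3-L4 larvae and -0.12 in embryos, where the 3 columns ran from -1.27 to 0.73.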

How the data were processed

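The deposited table gives FPKM, fragments per kilobase scaled to library size, computed by the authors for genes and EERs; per the submitters' processing notes, Novoalign, bedtools 2.19.0, SAMtools 0.1.19 and the build ce10 were used, and libraries were stranded per the labels' protocols. Use of strand in counting is not given in the sources used here. The deposited region lists hold positions and a score that the authors gave without stating its meaning, and only the positions were used.

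FPKM times length and library size gave whole reads, within 0.05 of a read for 100% of values, and these set the filter (at least 30 reads over 6 columns), the shares and the depth. Over the 6 columns a tested gene had a median of 115 reads and a tested EER one of 57. Library totals equal the sum over the listed features to within 20 reads, so FPKM is relative to listed features. RNA classes and symbols were looked up by sequence name in an annotation of WBcel235 for 25092 genes, with 417 unmatched, and no position was taken from it. All coordinates are ce10, counted from 1. No sequence of ce10 was at hand, and none is printed.

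The test was limma 3.58.1 in R 4.3.3 (eBayes with trend) on log2(FPKM + 1), 3 dsRIP against 3 total RNA columns. The fit without the block was also run on simulated data, drawn without the shared deviation of same-numbered columns. The fit with the block was not run on simulated data. Tables were made with Python 3.11.15, pandas 2.3.3 and SciPy 1.17.1. EERs were called overlapping from 1 bp on either strand. The pairing of columns was checked over 5101 features with at least 100 reads. Deviations from the group means correlated at 0.67, 0.63 and 0.49 between same-numbered dsRIP and total RNA columns, and at -0.14 or less between other numbers. The 3 deviations of a molecule cancel out, so the negative values follow from the positive ones and are no separate evidence. The numbers were taken to pair the columns from these data, since the labels do not state a pairing. Counting intervals are at 95% and cover counting error only. Members and gene lists were chosen with earlier results of these data known. Named features were the 10 largest changes each way with at least 100 reads and separate columns, the 5 most abundant genes and EERs in dsRIP, the 5 longest EERs, the 3 most abundant tested members of each list and selected dsRNA genes. piRNAs, lincRNAs, pseudogenes and unmatched genes are not named: 18, 4, 39 and 92 were tested, and 1 of them, a pseudogene, was called without the block.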

Additional observations from a re-analysis of the deposited data

Results flagged for a closer look

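The dsRIP ratio of EA6_EER1141- was higher in L1-L2 larvae than in young adults by 8.02 on the log2 scale (limma, adjusted p = 1.26e-05, over 24 columns). It had 0 reads in all 3 young adult dsRIP columns and 27 in total RNA, which makes it at least 5.67-fold lower there against a floor of 3 reads over the 3 columns; the fitted value depends on the pseudocount and is no bound.

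2 genes moved one way in all 3 numbered pairs of L1-L2 larvae and the other way in all 3 pairs of another stage; neither stage difference passed (limma over 24 columns). dpy-5, a cuticle collagen gene, had a mean log2 ratio of 0.52 in L1-L2 larvae and -1.90 in embryos, a difference of 2.41 (adjusted p = 0.999872 without the replicate block, 0.248 with it). vit-6, a yolk protein gene with 31 reads in L1-L2 larvae, had 0.34 there and -0.19 in L3-L4 larvae, a difference of 0.54 (adjusted p = 0.999849 without the block, 0.999676 with it). All named features were compared in this way, and many such comparisons were made.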

How the results depend on the processing

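None of the 122 calls changed sign under any alternative, but their number moved. All 122 had separate columns, so leaving out a column or changing the pseudocount could not turn their sign. Against 2 genes higher and 73 lower, and 47 EERs higher and 0 lower, the replicate block gave 75, 279, 122 and 2. The block leaves every ratio as it was, so it could not change a direction. The pairing behind the block comes from the columns, not the labels. Genes higher numbered 5 with a pseudocount of 10, without a filter and with voom, 8 with column medians set equal, 10 with quantile normalisation, 7 with TMM factors, 0 without the trend and 13 over all 24 columns. Genes lower numbered 46 without a filter and 122 over 24 columns. EERs higher numbered 71 with a pseudocount of 10, 23 without a filter, 23 with a filter of 100 reads, 82 with medians set equal and 81 with quantile normalisation; 1 EER was lower with a pseudocount of 5 or 10. Leaving out 1 column gave 0 to 1 genes higher, 21 to 62 lower, 2 to 41 EERs higher and 0 to 1 lower. The EER median of 1.44 was 1.67 with medians set equal and 1.40 from summed reads. With 1 column left out, the fold of the read share was 0.961 to 1.01 for nuclear protein-coding genes and 0.399 to 0.516 for other non-coding RNAs. It was 0.0549 to 0.0869 for snRNAs, 0.319 to 0.428 for snoRNAs and 0.355 to 0.517 for tRNAs. Of the stage differences, EA6_EER1141- was the 1 EER that also differed from the mean of the other stages with medians set equal. Against embryos, 1 gene was called with a pseudocount of 5 (R166.7) and 1 with the block (hacd-1), which also gave 1 EER (EA6_EER1444+) and 2 EERs against young adults (that EER and EA6_EER1141-). Setting the medians equal moved the median of all features from -0.23 to -0.0052. List medians were then 0.85 for known ADAR substrates, -0.27 for ADAR and dsRNA-binding genes and -0.056 for RNA interference genes. They were 0.029 for molting genes, 0.31 for named collagens, 0.37 for numbered collagens, 0.29 for body wall muscle and 0.25 for pharynx. Neurons had 0.072, intestine 0.15, heterochronic genes 0.055, chaperones 0.21 and translation factors 0.55. Large-subunit ribosomal proteins had 0.59 and small-subunit ones 0.76. The RNA classes had -3.67 for snRNAs, 0.75 for rRNAs, -1.17 for other non-coding RNAs, -0.16 for pseudogenes and -0.017 for nuclear protein-coding genes. EER host genes had 0.24. With a filter of 100 reads the list medians were -0.31 for ADAR and dsRNA-binding genes and -2.10 for intracellular pathogen response genes. They were -0.038 for molting genes, 0.060 for the intestine, 0.11 for piRNAs and -1.58 for other non-coding RNAs. The sign of some ratios that had not passed the threshold turned: with medians set equal they were 0.13 for adr-1, 0.017 for let-767, 0.087 for act-5, 0.11 for pgl-1, 0.12 for his-64, 0.20 for his-60 and 0.072 for rrf-3, and with 1 column left out they ranged across 0 for EA6_EER1141- (-0.48 to 0.74), EA6_EER1389+ (-0.043 to 1.28), MTCE.21 (-0.34 to 0.88), act-5 (-0.30 to 0.066), asp-1 (-0.12 to 0.55), col-160 (-0.50 to 0.79), cpr-4 (-0.28 to 0.78), deps-1 (-0.065 to 0.43), dpy-5 (-0.43 to 1.6), his-60 (-0.72 to 0.48), his-64 (-0.50 to 0.16), let-767 (-0.37 to 0.00015), lin-28 (-0.14 to 0.12), mlc-2 (-0.11 to 0.078), osm-11 (-0.31 to 0.40), pals-25 (-0.073 to 0.55), pgl-1 (-0.42 to 0.10), phat-5 (-0.20 to 0.34), rol-8 (-0.28 to 1.25), rrn-1.1 (-0.15 to 0.67), sbt-1 (-0.067 to 0.18), sqt-3 (-0.066 to 1.30), tsn-1 (-0.20 to 0.18) and vig-1 (-0.050 to 0.20). The causes of these changes were not tested. A tested EER had a median of 57 reads over 6 columns. The columns of a group differed 5.91 to 6.83 times more than counting noise over all features with at least 30 reads in that molecule. This spread was not computed for EERs alone, and what limits single EERs was not tested.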
